A study of Mus musculus with 8 samples.

Results

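A set of 326 intervals called as CLIP peaks of tagged RBM45 just inside introns, within 100 nt downstream of a 5′ splice site, is described here. They were taken from the deposited list of peaks found in both WT CLIP replicates, which holds 16399 distinct intervals with their strand, and of these 14268 had their midpoint in an intron of a protein-coding gene. A shared peak was included if its midpoint lay in a protein-coding gene on the same strand (GENCODE M21 basic set, mm10), in no exon of that gene, and within 100 nt downstream of the 3′ end of an exon of any of its transcripts. Where a 3′ splice site was also within 100 nt, the nearer site decided. The intervals make up 2.28% of the intronic shared peaks (Wilson 95% interval 2.05 to 2.54%, which covers counting error only), on 314 genes, 21 chromosomes and 326 different splice sites. No measured height entered the choice beyond the peak calling itself, the lowest −log10 p listed being 2.31 in replicate 1 and 2.30 in replicate 2.

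The peaks come from iCLIP, in which UV light joins a protein to the RNA it touches and the RNA recovered with that protein is sequenced. The cells were mHippoE-2, a transformed line of mouse hippocampal neurons (labelled strain Crl:CFW(SW)-024), labelled WT. They carried a lentivirus for FLAG- and HA-tagged mouse RBM45, and the pull-down used an HA antibody, so that the tagged protein and not the endogenous one was measured. The series also holds size-matched input libraries and the same 2 kinds of library from Mettl3 knockout cells, 2 libraries in each of 4 groups, and only the peak lists of the 2 WT CLIP libraries are used here. The labels do not call the replicates separate cultures, so that the spread between them may be technical. The number of reads behind each peak is unknown.

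RBM45 binds RNA through RNA recognition motifs and resides mostly in the nucleus. The 5′ splice site is the junction between an exon and the intron that follows it. It is first recognised by the U1 snRNP, whose RNA pairs with the last bases of the exon and the first bases of the intron, and is later handed to the U6 snRNA. Proteins bound to the intron just downstream can promote or hinder use of the site, as TIA1 does at U-rich stretches. At the other end of the intron the branch point, the polypyrimidine tract and the closing AG are read by SF1 and the U2AF proteins.

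Sequence could be read for 58 intervals, where an exon of another GENCODE M21 transcript runs through the intron. Those below show how far the peaks stand from the junction in highly ranked readable cases, together with a splicing factor gene, a host of a small RNA, and a peak that spans the junction. Each is on the transcribed strand and, except for Pigb, starts with the last 3 bases of the exon, followed by the intron up to the end of the peak. Capitals mark the peak. The mm10 positions of the printed stretches are chr5:150650444-150650617 (minus strand) for N4bp2l2, chr17:23677014-23677123 (minus) for Tnfrsf12a, chr12:105747313-105747386 (plus) for Ak7, chr17:31654908-31654981 (minus) for U2af1, chr14:31015162-31015277 (minus) for Gnl3 and chr9:73029547-73029576 (minus) for Pigb.
N4bp2l2: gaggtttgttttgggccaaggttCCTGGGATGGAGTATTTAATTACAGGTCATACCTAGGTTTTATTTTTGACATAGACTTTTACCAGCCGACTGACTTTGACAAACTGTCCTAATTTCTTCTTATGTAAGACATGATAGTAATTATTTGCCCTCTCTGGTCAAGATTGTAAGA
Tnfrsf12a: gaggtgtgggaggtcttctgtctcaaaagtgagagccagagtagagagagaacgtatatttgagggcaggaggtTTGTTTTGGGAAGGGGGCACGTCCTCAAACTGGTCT
Ak7: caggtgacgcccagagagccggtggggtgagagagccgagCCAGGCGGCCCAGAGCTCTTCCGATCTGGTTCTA
U2af1: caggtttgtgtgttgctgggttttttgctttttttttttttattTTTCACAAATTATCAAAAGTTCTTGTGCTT
Gnl3: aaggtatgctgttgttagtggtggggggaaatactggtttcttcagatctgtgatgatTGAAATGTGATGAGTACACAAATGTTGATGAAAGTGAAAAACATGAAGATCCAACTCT
Pigb: TTACCTGTAGGGTAAGTCTGGCTGTGGTGC
In the stretches other than Pigb, the junction itself lies outside the peak. In Pigb the peak covers it, and the last 3 exon bases with the first 6 intron bases read AGGGTAAGT.

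The first question was where in the 100 nt window the peaks stood. The midpoint of a member lay a median of 61.5 nt from the splice site (quartiles 43 and 82 nt, range 1 to 100 nt), distance 1 being the first base of the intron. Within 30 nt of the site were 42 of 326 members (12.9%, Wilson interval 9.67 to 17%). Of the 334 intronic shared peaks within 100 nt upstream of a 3′ splice site, 117 lay within 30 nt of that site (35.0%, 30.1 to 40.3%). The share close to the junction was thus lower at 5′ sites than at 3′ sites, with intervals that do not overlap, and the difference was not tested.

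Introns differ in length, so the peaks were also counted per megabase (Mb) of intronic positions available at each distance. In the shared list, the density was 5.67 peaks per Mb at 1 to 10 nt (exact Poisson interval 2.83 to 10.1, counting error only), 15 at 31 to 40 nt and 25.5 at 51 to 60 nt. Over the first 40 nt together it was 9.16 (7.16 to 11.6), over 41 to 100 nt 24.1 (21.2 to 27.2) and over 101 to 200 nt 21.5 (19.2 to 23.9). Beyond 40 nt the window was about as densely covered as the intron that follows it, and the first 40 nt were the sparse stretch.

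The first 40 nt were also sparser than the rest of the window in each replicate's own list, before any matching between them. Replicate 1 had 7371 peaks in the window and a density of 187 per Mb at 1 to 10 nt (168 to 207), 279 over 1 to 40 nt, 492 over 41 to 100 nt (478 to 505) and 480 over 101 to 200 nt (469 to 491). Replicate 2 had 7288 peaks and densities of 201 at 1 to 10 nt (182 to 222), 283 over 1 to 40 nt, 481 over 41 to 100 nt (468 to 495) and 421 over 101 to 200 nt (411 to 432). Beyond 100 nt the density of replicate 2 was lower again, with intervals that do not overlap, and in replicate 1 the intervals overlap. On the approach to 3′ splice sites the last 40 nt had 502 peaks per Mb against 436 over 41 to 100 nt in replicate 1, and 440 against 377 in replicate 2. That excess lay in the last 20 nt, since at 21 to 30 nt the densities were 372 and 353. In the shared list the values were 20.6 (17.6 to 24.1) and 16.8 (14.4 to 19.5), with intervals that overlap.

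On the exon side of the same 5′ splice sites, peaks with their midpoint in the last 40 bases of the exon had a density of 20.7 per Mb in the shared list (17.6 to 24.1). In replicate 1 it was 537 and in replicate 2 it was 479 over those bases. All 3 values are above those of the first 40 nt of the intron. The exon side was also lower right at the junction, with 11.5 per Mb at the last 10 bases of the exon (7.29 to 17.3) against 28.1 at the 10 bases before them in the shared list, 459 against 639 in replicate 1 and 449 against 535 in replicate 2. Exonic positions are also present in spliced RNA, and the parts that spliced and unspliced RNA had in these counts cannot be told apart. A peak that straddles the junction is counted once, on the side of its midpoint, and 17 members (5.21%, 3.28 to 8.19%) reached back into the exon. In the replicates' own lists that share was higher, at 8.56% in replicate 1 and 9.18% in replicate 2.

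**Figure D1:**
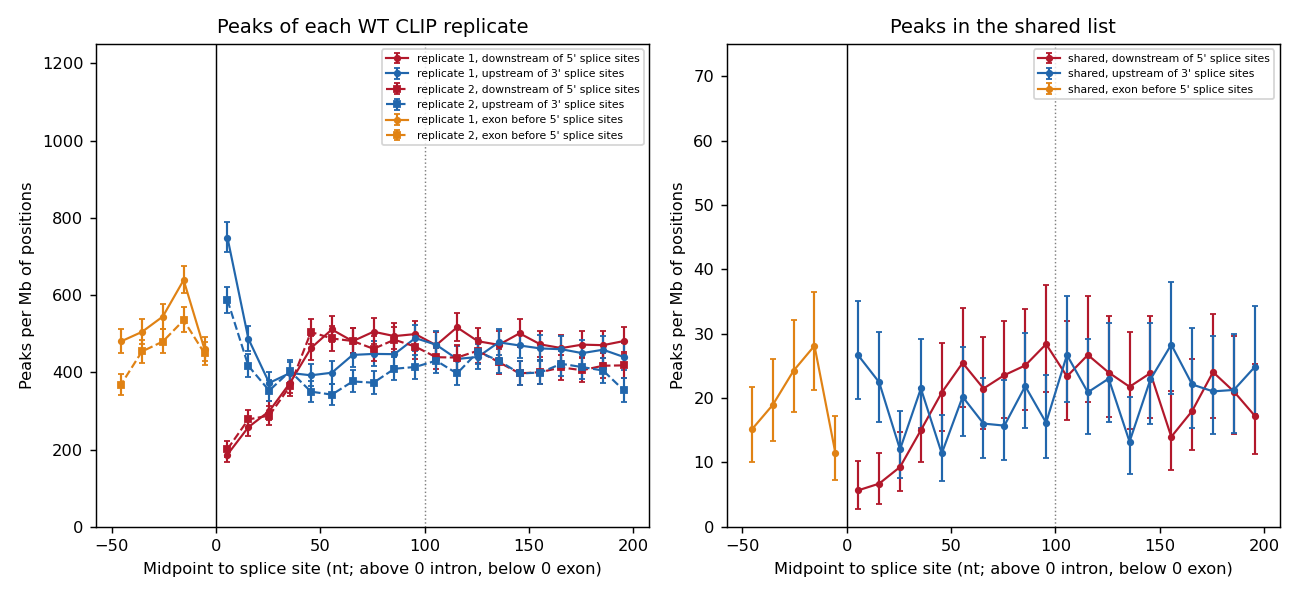
Peaks per Mb of positions in bins of 10 nt around splice sites, for the peak lists of the 2 WT CLIP replicates (left) and the shared list (right). Red, intron downstream of 5′ splice sites; blue, intron upstream of 3′ splice sites; orange, exon before 5′ splice sites; points are placed at the middle of each bin, bars are exact Poisson 95% intervals, and the dotted line is the limit of 100 nt. The red lines start low, at 187, 201 and 5.67 per Mb, and are higher beyond 40 nt; the line of replicate 2 is lower again beyond 100 nt.

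Among the members nearest to their splice site were those in Dzank1 (1 nt), Adam17 (3 nt), Katnal2 (5 nt) and Pigb (5 nt). Each of these peaks was 30 bp wide and crossed the junction. The Dzank1 peak (chr2:144525565-144525594) had a fold over the peak caller's background of 6.83 in replicate 1 and of 1.90 in replicate 2. In Adam17, which encodes the protease that sheds TNF from the cell surface, the folds were 1.89 and 1.86. In Pigb, a mannosyltransferase of GPI anchor synthesis, both were 1.87.

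At the outer edge the limit cut through peaks of all heights. Just inside it, at 100 nt, stood members in Uty (folds 8.89 and 6.5), Tnpo2 (3.77 and 18.1) and Gcfc2 (2.82 and 3.39). Just outside it, at 101 nt, stood shared peaks in Iqgap1 (4.10 and 5.77), Chmp7 (2.88 and 3.77) and Ghitm (1.85 and 2.63).

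Most members were low. The fold, which is the authors' own value for each peak, had a median of 1.95 in replicate 1 (quartiles 1.90 and 2.93, range 1.82 to 20.5) and 2.38 in replicate 2 (1.88 and 3.10, range 1.81 to 18.1). In 120 of 326 members (36.8%) it was under 2 in both replicates, against 38.6% of all intronic shared peaks. The −log10 p of the peak caller had medians of 3.45 and 3.10. The interval had the least width, 30 bp, in 218 members (66.9%), against 69.0% of all intronic shared peaks, and 4 members were wider than 100 bp.

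A fold of 5 or more in both replicates was reached by 13 members (3.99%, 2.35 to 6.70%). Among all intronic shared peaks 5.62% reached it, so that the share was near the background, and near 3′ splice sites it was 10 of 334 (2.99%). A −log10 p of at least 4 in both replicates was met by 58 members (17.8%), against 19.8% of all intronic shared peaks. The highest ranked member stood at place 180 among the intronic shared peaks when ranked by the lower of the 2 −log10 p values. By distance, the 13 members with a fold of 5 or more in both were 0 of 24 within 20 nt, 3 of 47 at 21 to 40 nt, 4 of 85 at 41 to 60 nt, 0 of 79 at 61 to 80 nt and 6 of 91 at 81 to 100 nt, with no order by distance.

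The 4 members at the top of that ranking had folds of at least 8.76 in each replicate. In Togaram2, a gene for a protein with TOG domains, the peak stood 45 nt into intron 3 (chr17:71687729-71687758), with folds of 8.76 in replicate 1 and 13.4 in replicate 2. In Aff4, the scaffold of the super elongation complex that releases paused RNA polymerase II, it stood 32 nt into intron 1 (chr11:53351139-53351183), with folds of 13.3 and 11. The Aff4 intron is 17530 nt long and interrupts the 5′ UTR. In Ecm1, a secreted matrix glycoprotein, the peak stood 97 nt into intron 8 (chr3:95735718-95735783), with folds of 16.1 and 10.6. The N4bp2l2 peak shown above, 96 nt into intron 3, was the widest member at 151 bp and had folds of 15.9 and 10.5. An annotated retained-intron transcript of N4bp2l2 runs through it.

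Next in order came peaks in genes of quite different function. Map3k15, a MAP kinase kinase kinase, had folds of 8.78 and 7.69 at 58 nt into intron 11 (chrX:160081923-160081977). Prss38, a serine protease gene, had 5.86 and 6.73 at 27 nt into its last intron (chr11:59373384-59373414), which is only 255 nt long. Tnfrsf12a, the receptor for the cytokine TWEAK, had 7.80 and 7.15 at 90 nt, after an exon that another basic transcript skips. Uty, a Y-linked relative of the histone demethylase gene Kdm6a, had 8.89 and 6.5 at 100 nt into intron 14 (chrY:1167945-1168035). Zmynd8, a chromatin reader, had 5.40 and 9.17 at 96 nt into intron 10 (chr2:165834758-165834831). These peaks were above a fold of 5 in both libraries, and replicate 1 was the higher in 3 of the 5.

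The last 6 of the 15 highest ranked members were Rsrp1, Brwd1, Acadvl, Polr2k, Prpf3 and Ak7. Rsrp1, which encodes a protein rich in arginine and serine, had folds of 4.84 and 4.03 at 65 nt. Brwd1, a protein with bromodomains and WD repeats, had 5.86 and 5.77 at 54 nt (chr16:96021131-96021193). Acadvl, the very-long-chain acyl-CoA dehydrogenase of mitochondria, had 8.06 and 5.56 at 28 nt into an intron of 258 nt (chr11:70015073-70015105). Polr2k, a small subunit shared by the nuclear RNA polymerases, had 11.4 and 5.56 at 45 nt into its last intron (chr15:36175477-36175564). Prpf3, a component of the U4/U6 snRNP, had 4.73 and 5.56, in a peak of 125 bp that begins in the first exon (chr3:95855245-95855369). Ak7, an adenylate kinase, had 3.9 and 6.35 at 55 nt. In 8 of the 15 genes the member was the only shared peak of the gene, against 96 of all 326 members (29.4%). This share was not computed for all intronic shared peaks.

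**Figure D2:**
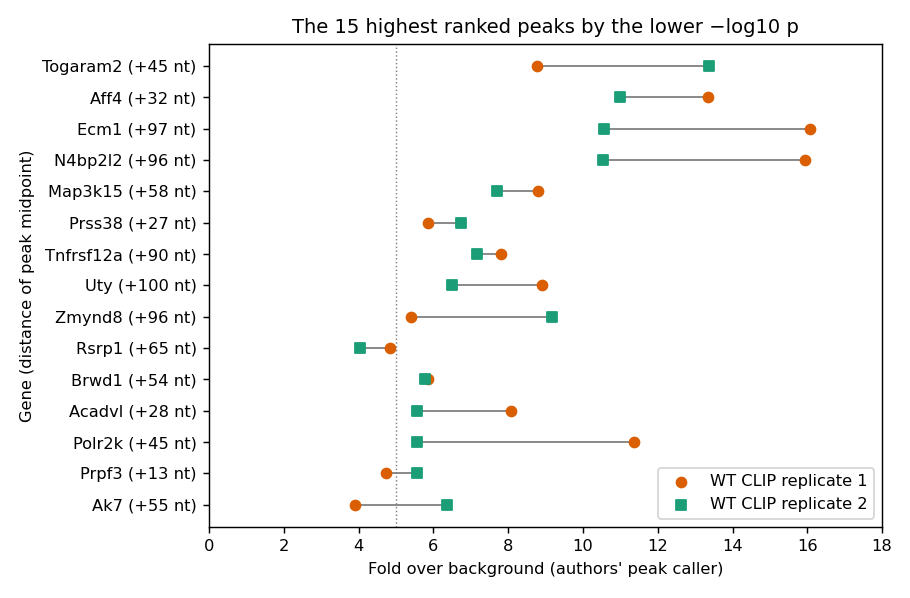
Fold over background in WT CLIP replicate 1 (circles) and replicate 2 (squares) for the 15 members with the highest lower −log10 p, in rank order, with the distance of the midpoint from the 5′ splice site beside each gene. The dotted line marks a fold of 5, and Rsrp1, Prpf3 and Ak7 have 1 or both points below it.

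Across the 326 members the fold was higher in replicate 2 in 118 (36.2%), and the rank correlation of the folds was 0.393 (Spearman, over members that share the same 2 libraries, given as a description). Over all intronic shared peaks the fold was higher in replicate 2 in 31.01%, and the rank correlation was 0.459. Neither difference was tested. An extreme on one side was Fdps, the farnesyl diphosphate synthase of the mevalonate pathway, with folds of 20.5 and 3.77 at 94 nt (chr3:89100555-89100595). On the other was Tnpo2, a nuclear import receptor, with 3.77 and 18.1 in an intron of 209 nt (chr8:85053623-85053668). The Tnpo2 interval was listed on both strands, and a transcript of another gene lies over it on the opposite strand. Its strand, and so its gene, is therefore uncertain. The Fdps midpoint lay in 2 protein-coding genes on the same strand, so that its gene is uncertain too. Fdps and Tnpo2 were singled out after their values were seen. The replicate 1 midpoint lay a median of 8.5 nt from the replicate 2 midpoint, and for 298 members (91.4%) it also fell within the same 100 nt window.

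**Figure D3:**
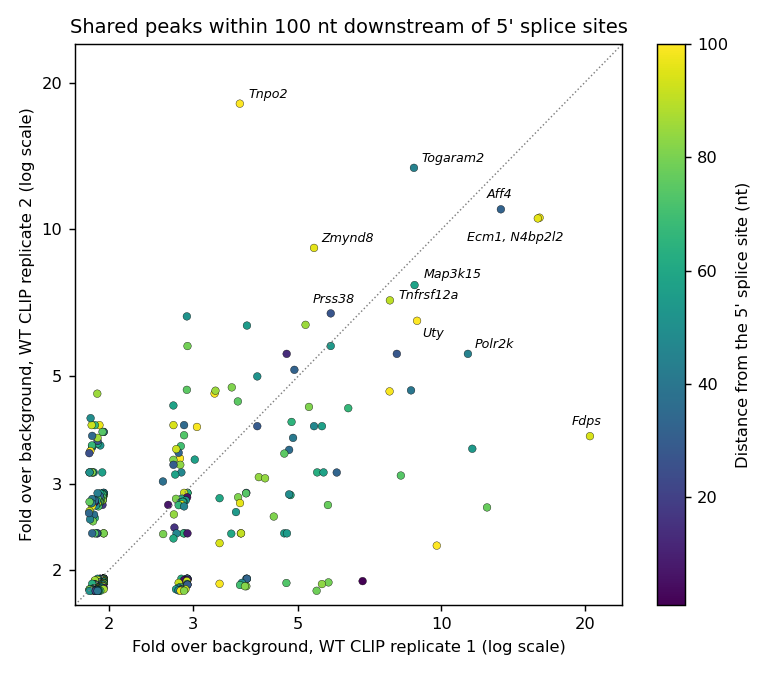
Fold over background of the 326 members in replicate 1 (horizontal, log scale) and replicate 2 (vertical, log scale), coloured by the distance of the midpoint from the 5′ splice site; the dotted diagonal marks equal folds. Most points sit in the lower left corner near 2, and Fdps (20.5 and 3.77) and Tnpo2 (3.77 and 18.1) lie far from the diagonal.

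How often a peak near a 5′ splice site recurred was then asked of each replicate's own list, counting any overlap of at least 1 bp on the same strand. Of the 7288 such peaks of replicate 2, 544 overlapped a replicate 1 peak (7.46%, 6.88 to 8.09%), against 7.70% near 3′ splice sites, 7.72% deeper in introns and 10.1% in exons. In the other direction it was 7.18% of the 7371 peaks of replicate 1. Within 40 nt of the site the share was 6.02% (5.10 to 7.10%) in replicate 2 and 5.36% in replicate 1, and at 41 to 100 nt it was 8.08% (7.37 to 8.86%) and 7.93%. The share was lower next to the junction than farther in, with intervals that do not overlap, and the 2 directions count the same overlaps from either side. Median folds were 1.92 at both distances. The density of the other replicate's peaks was also lower next to the junction, and its part in the recurrence was not tested.

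Recurrence moved with height. Near 5′ splice sites 24 of 45 replicate 2 peaks with a fold of 5 or more recurred (53.3%, 39.1 to 67.1%), and 36 of 50 replicate 1 peaks (72%, 58.3 to 82.5%). Deeper in introns the shares were 62.7% in replicate 2, inside that interval, and 56.9% in replicate 1, just below it. The 2 directions thus had opposite orders, and the differences were not tested. Replicate 2 peaks with a fold of 3 to under 5 recurred in 9.76% near 5′ splice sites (8.03 to 11.8%) against 14.9% deeper in introns, but the replicate 1 peaks of that height recurred in 14.2% against 12.5%.

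**Figure D4:**
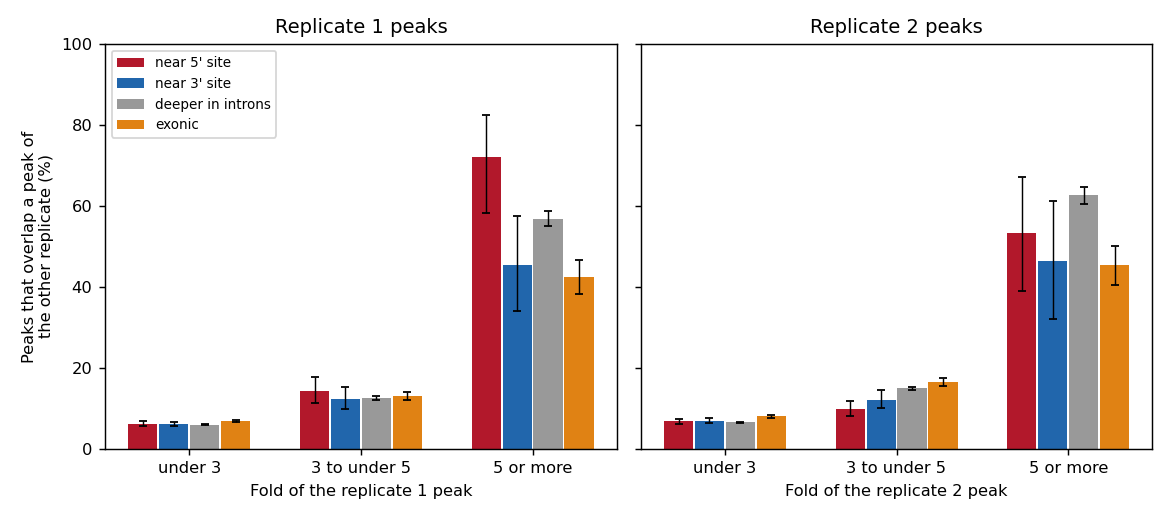
Share of peaks that overlap a peak of the other WT CLIP replicate (vertical, percent), by the fold of the peak and its place (near a 5′ splice site, near a 3′ splice site, deeper in introns, exonic); bars are Wilson 95% intervals. The shares are under 10% at folds under 3 in all places and between 42% and 72% at folds of 5 or more.

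The splice sites themselves were ordinary ones by the annotation. They were compared with the 77728 5′ splice sites of genes that hold any intronic shared peak. The site lay in the coding part of the gene for 306 members (93.9%, against 93.7% of those sites), in the 5′ UTR for 16 (4.91% against 5.76%) and in the 3′ UTR for 4. A first intron held 36 members (11%, 8.08 to 14.9%, against 9.32%) and a last intron 29 (8.90% against 7.13%). The share in first introns was 8.19% in replicate 1's own list and 7.23% in that of replicate 2, both below 9.32%, and it was 16% of the shared peaks placed on the comprehensive annotation, so that no direction is read from it. The exon before the site was skipped in another basic transcript for 20 members (6.13%, 4.01 to 9.29%, against 4.91%), among them Tnfrsf12a, Clasp2 and Katnal2. For 27 members (8.28% against 8.64%) the 3′ splice site of the intron was also joined to another annotated 5′ splice site. That count includes cases of exon skipping and of alternative first exons, and so overlaps the one before it. In each of these comparisons the value for the other sites lay inside the Wilson interval of the members. Introns under 300 nt made up 7.98% (5.50 to 11.4%) against 13.5% of sites, and the median intron length was 1566 nt against 1756 nt. A short intron can offer fewer positions, and the part of this in the difference was not tested. Of the members, 9 also lay within 100 nt of a 3′ splice site.

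Other annotated RNA overlapped some members. For 59 members (18.1%, 14.3 to 22.6%) an exon of another transcript of the same gene, from the comprehensive GENCODE set, lay over the peak, and for 47 (14.4%) that transcript was of the retained intron class. Neither share was computed for the other intronic shared peaks, so neither is read as particular to the members. The only member that lay over a small RNA, named after its values were seen, was at the snoRNA Gm24916 in intron 7 of Gnl3, a nucleolar GTPase gene, and had folds of 3.35 and 4.67. The same interval was listed on both strands for 2 members, Tnpo2 among them, and 7 lay in more than 1 protein-coding gene. How strand was given to the peaks is not stated in the sources used here.

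The sequence at the readable sites was compared with other annotated 5′ splice sites that could be read in the same way. The intron began with GT at 61 of 61 member sites and at 97.1% of 29121 others. It began with GTAAG at 15 (24.6%, 15.5 to 36.7%, against 23.0%) and with GTGAG at 12 (19.7%, 11.6 to 31.3%, against 26.1%). The last base of the exon was G at 46 (75.4% against 78.6%). None of these lay outside the interval of the members.

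Short motifs were searched by their letters on the transcribed strand only. In windows of 100 nt that start at the first base of the intron, readable for 53 member sites and 25269 others, GAC was present in 66.0% against 67.3%. GGG was present in 67.9% against 74.1%. TTTTT was present in 13 of 53 (24.5%, 14.9 to 37.6%) against 14.2%, the U2af1 and N4bp2l2 stretches above being examples of such runs. TGTGT was present in 9.43% against 18.6%. In the peak intervals, GAC was present in 23 of 58 members (39.7%) and 40.3% of 710 other readable intronic shared peaks, and TTTTT in 10.3% and 9.86%, with 4.42 against 7.70 occurrences of TTTTT per kb. GGG was present in 24 of 58 (41.4%, 29.6 to 54.2%) against 26.8% (23.6 to 30.1%), or 22.5 against 10.8 occurrences per kb with overlaps counted. The Tnfrsf12a peak holds such runs. The G and C content was 45.0% in member peaks and 43.8% in the others. Readable sites are those crossed by other transcripts, and no sequence was read for the remaining members.

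The letters CTTCCGATC, which also occur in common Illumina adapters, were present in 1 of 58 readable member peaks, that of Ak7. Among readable shared peaks deeper in introns they were in 1 of 647, in Mrpl3. Their part in the Ak7 peak was not tested.

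Gene groups were described by how many of the genes with any intronic shared peak held a member, for which the background over all such genes is 6.17% (314 of 5088). Among the 15 lists, 11 of 151 genes did. In the list for U1 snRNP and recognition of the 5′ splice site it was 1 of 2 genes, Prpf40b, a relative of the yeast U1 protein Prp40. Its peak stood 37 nt into an intron of 209 nt (chr15:99306208-99306237), with folds of 1.86 and 2.60. Among other core spliceosome genes it was 2 of 9, Prpf3 (above) and U2af1, the small U2AF subunit that reads the AG at the 3′ splice site. The U2af1 peak had folds of 3.03 and 3.37, 57 nt into intron 2. None of 6 genes for SR and related proteins, 4 hnRNP genes or 8 neuronal splicing regulators held one.

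In the m6A list 2 of 10 genes held a member. Igf2bp3, an RNA-binding protein described as an m6A reader, had a peak with folds of 1.95 and 1.92, 46 nt into intron 10 (chr6:49104114-49104143). Mettl14, the partner of Mettl3 in the methyltransferase, had 1.92 and 2.82, 71 nt into intron 1 (chr3:123385677-123385706). Mettl3 had no intronic shared peak. Rbm45 had 2 intronic shared peaks, the nearer 973 nt from a 5′ splice site, and no member.

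Cytoskeletal genes held the most members of any list, in 5 of 30 genes, against 6.17% of all genes with an intronic shared peak. Camsap1, which binds microtubule minus ends, had 2 members. The one in intron 1, 75 nt from the site (chr2:25982687-25982728), had folds of 3.74 and 4.44, and the one in intron 8, 34 nt from the site, had 1.82 and 2.62. Tln2, a talin that links integrins to actin, had 2.88 and 3.97 at 35 nt (chr9:67397458-67397496). Dst, a linker of cytoskeletal filaments, had 8.22 and 3.13 at 74 nt (chr1:34186097-34186150). The other genes were Ckap5, a microtubule polymerase, and Clasp2, a microtubule plus-end protein, both with folds under 3.5 in each replicate (named outside the naming rule, after their values were seen). Tln2 held 19 shared peaks, Dst 15, Camsap1 and Clasp2 7 each and Ckap5 1. The median over genes with an intronic shared peak was 2. A gene with more peaks has more that could be members, and the part of this in the count was not tested. Among 28 chromatin regulators with an intronic shared peak the only one was Arid1b, a BAF complex subunit, with 1.92 and 1.88 at 16 nt. The lists for axon guidance (0 of 25), synaptic adhesion and scaffold (0 of 20) and ALS and FTD genes (0 of 7) had none. Nor did the markers of astrocytes, oligodendrocytes and endothelium (0 of 1 gene each) or of microglia, of which no gene had an intronic shared peak.

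Members at 2 different 5′ splice sites were found in 12 genes: Adcy3, Adgrl2, Ap3d1, Atp5g1, Camsap1, Nlrc5, Pcyt1a, Plcb4, Ptprg, Pus7, Slc4a3 and Tpcn1. The highest pair was in Pcyt1a, the rate-limiting enzyme of phosphatidylcholine synthesis, at the 5′ splice sites of 2 separate, alternative first exons. Its peaks stood 99 nt (chr16:32431069-32431190, folds 7.78 and 4.66) and 75 nt (chr16:32431467-32431558, folds 2.92 and 4.69) from their sites. In Pus7, a pseudouridine synthase, the peak in intron 8 had folds of 5.40 and 3.95 and that in intron 15 had 1.94 and 1.88. In Adgrl2, a latrophilin, both sites follow exons that another transcript skips, with folds of 2.83 and 3.59 in intron 17 and 1.82 and 2.65 in intron 21. In Nlrc5, a regulator of MHC class I genes, the peaks lay in the neighbouring introns 21 and 22 and all 4 folds were under 2. A member was the only shared peak of its gene in 96 cases (29.4%), and the highest ranked shared peak of its gene, ties included, in 164 (50.3%). The 164 include the 96, since an only peak is the highest by construction. Neither share was computed for all intronic shared peaks, so neither is read as particular to the members.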

How the data were processed

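The authors deposited peak lists of the 2 WT CLIP libraries and a list of the peaks they share. MACS2 2.1.1.20160309, Novoalign 3.09.00, HOMER 4.11.1, deepTools 3.2.1, bedtools 2.25.0 and the build mm10 are named in the submitters' processing notes, without their roles. Each deposited peak has the authors' score (10 times the −log10 p, rounded down), a fold (a ratio over the peak caller's background) and the −log10 p itself. The peak caller's control was not given in the sources used. Repeated lines were removed, leaving 387749 and 344700 peaks. In the deposited shared list the overlap was at least 50% of the replicate 2 peak, whose interval is the one placed here.

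Peaks were placed by their midpoint on GENCODE M21 basic with Python 3.11.15, numpy 2.4.6, pandas 2.3.3 and scipy 1.17.1, and plotted with matplotlib 3.10.9. The placement was tested on simulated data, where 2000 of 2000 peaks were placed right. All of these were intronic, in 1 gene only, and within 200 nt downstream of a 5′ splice site. Overlapping genes, exonic midpoints and odd widths were therefore not tried. For densities, the positions available were the intronic bases at each distance for which that site is the nearer. Sequence came from GENCODE M21 transcripts, and a genome was not used here. It was looked up for 310 of the 326 intervals. No test over samples was made, since 2 libraries of 1 group allow none. Depth is unknown.

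The members and the gene lists were chosen with earlier results of these data known. Genes were named if they held one of the 15 members with the highest lower −log10 p, members at 2 sites, the 3 highest members of a gene list, one of the 5 nearest members or one of the 3 on either side of the limit, and Rbm45 and Mettl3 always. Some items that this rule or the sequence step gives are not reported here. Count tables with 8 library columns each carry names that match no label, so those columns were not used and the planned contrast of knockout and WT was not run.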

Additional observations from a re-analysis of the deposited data

How the results depend on the processing

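Of 54 values under alternative settings, 33 moved by less than 1.5 times for counts, or by less than the interval or spread of the value for shares and medians, and 21 moved by more. With a −log10 p of at least 4 in both replicates there were 58 members, 17.2% of them in first introns, the median lower fold was 3.68 in place of 1.91, and 5.78% of replicate 2 peaks recurred. A window of 50 nt left 110 members (0.771% of intronic shared peaks), at a median of 35 nt, with 15.5% reaching into the exon and 6.09% recurring. A window of 200 nt gave 666 members (4.67%), at a median of 103 nt, with 2.70% reaching into the exon. Requiring each peak to cover 50% of the other gave a recurrence of 3.87%, and the comprehensive annotation put 16% in first introns. Leaving out a replicate means that the other's list is used alone: the number of peaks was then 7288 to 7371, the share of intronic peaks 2.15 to 2.38%, the median distance 56 to 58 nt, the share reaching into the exon 8.56 to 9.18%, the share in first introns 7.23 to 8.19% and the median fold 1.92 with either. The causes were not tested, except that a wider or narrower window changes distances by its construction. No paired analysis was possible because no comparison between groups was made: the peak lists used are of WT CLIP only, and the count columns match no labels.

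The limits are those of 2 libraries with unknown depth: intervals cover counting error, most members are near the lowest fold listed, sequence was readable for a minority, and how strand was given to the peaks is unknown.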
